A study of Perna viridis with 2 samples.

Results

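Testis-specific serine kinases (TSSK) were described in the mantle of the green mussel Perna viridis, as 5 assembled genes out of 78458 in the deposited tables. They were chosen by name and by level: the entries called TSSK or testis-specific serine kinase that reached 10 TPM in at least 1 of the mantle regions sequenced. TPM is a length-adjusted level scaled to a common total per library, so that values of different genes can be set side by side. No entry of that name lay below the threshold: 5 of 5 such entries were members, and the least abundant stood at 27.8 TPM. Because their levels were used to choose them, the values of these 5 genes are a description and carry no test.

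Bulk RNA was sequenced from the submarginal zone, the mantle between the folds and the pallial line, and from the periostracal groove between the outer and middle folds, where the organic outer layer of the shell is secreted. The animals were mature, healthy and untreated mussels from the coast of Zhuhai with shells of 6 to 7 cm, their genotype is given as unknown, and the sources used here give neither sex nor gonad stage. Each sample pooled tissue of 6 animals, all cell types together. Each region had 1 deposited profile, although the design text speaks of 3 biological replicates, and the differences below therefore come without an SD or a p-value. The value columns of both tables are headed with the groove's sample name, and each table was assigned to the region whose record lists it. An exchange of the tables would turn round all directions given here.

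TSSK proteins are serine/threonine kinases of the CAMK group. In mammals they are made mainly in spermatids, the haploid cells that remodel into sperm after meiosis, and male mice that lack the related pair Tssk1 and Tssk2, or Tssk6, are infertile. In marine mussels the reproductive tissue is not confined to a compact gonad but extends into the mantle, so that whole mantle tissue can hold germ cells. The names used here are best database matches of assembled fragments, and none of these roles was measured in Perna viridis.

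All 5 TSSK genes were present in the submarginal zone and near 0 in the groove. The most abundant, TRINITY_DN20338_c0_g1, matched an entry named TSSK in Mytilus coruscus and had 144 TPM in submarginal tissue, against 0.10 TPM in groove tissue. TRINITY_DN1889_c0_g1, matched to the same name in the same species, had 58.3 TPM in submarginal tissue, against 0.09 TPM in groove tissue. A pair matched to testis-specific serine kinase of Mytilus galloprovincialis followed. Of these, TRINITY_DN4281_c0_g1 had 37.8 TPM in submarginal tissue, against 0.05 TPM in groove tissue. TRINITY_DN28066_c0_g1 had 28.5 TPM in submarginal tissue, against 0.05 TPM in groove tissue. TRINITY_DN5384_c0_g1 was matched in Mytilus coruscus to a composite name that lists the testis-specific kinases TSSK5 and TSSK1 together with HUNK, a kinase related to SNF1. It had 27.8 TPM in submarginal tissue, against 0.11 TPM in groove tissue. The lowest submarginal value thus stood far above the highest groove value.

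**Figure D1:**
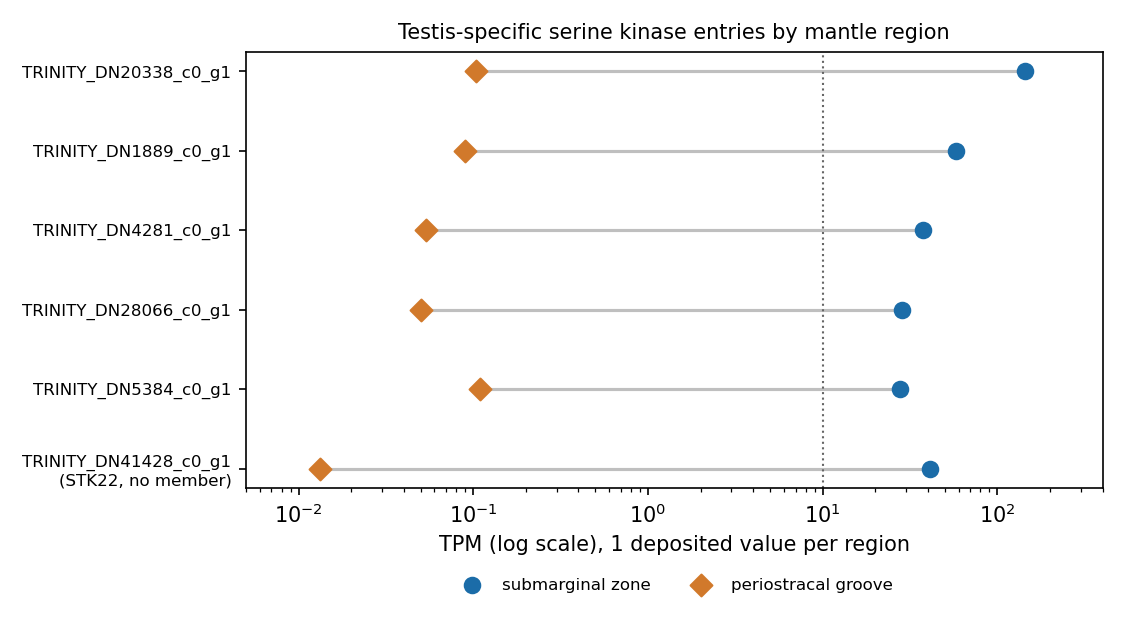
TPM on a log scale for the 5 TSSK genes and for the entry named STK22, with 1 deposited value per region (circles, submarginal zone; diamonds, periostracal groove) and a dotted line at 10 TPM. The TSSK genes sit between 27.8 and 144 TPM in submarginal tissue and between 0.05 and 0.11 TPM in groove tissue.

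Ratios were taken as log2 of submarginal zone over groove after adding 1 TPM to each value, which understates the difference of genes that are low in a region. On this scale the members had 7.03, 5.77, 5.20, 4.81 and 4.70, in the order of their levels above. A gene was counted as higher in a region when the ratio was at least 4-fold (2 on the log2 scale) and the higher region reached 10 TPM. All 5 members met this, and of all 5800 genes reaching 10 TPM, 719 met it in the same direction (12.4%) and 548 in the opposite one (9.45%). Since level entered the choice of members, and earlier results of these data were known when they were chosen, nothing is read from that count. The median ratio of the 5800 genes was 0.55, so most genes had somewhat higher TPM in the submarginal zone.

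In order of this ratio the members ranked 33, 85, 138, 190 and 205 among the 5800 genes. In order of level in the submarginal zone they ranked 465, 963, 1409, 1828 and 1865 among 78453 genes with values. They were therefore moderately abundant transcripts with a large regional difference, not the leading transcripts of the zone. Without the added 1 TPM, the ratios of the deposited values ran from 253-fold for TRINITY_DN5384_c0_g1 to 1389-fold for TRINITY_DN20338_c0_g1. Read depth is unknown, so the groove values of 0.05 to 0.11 TPM may rest on very few reads, and these plain ratios have no counting error.

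**Figure D2:**
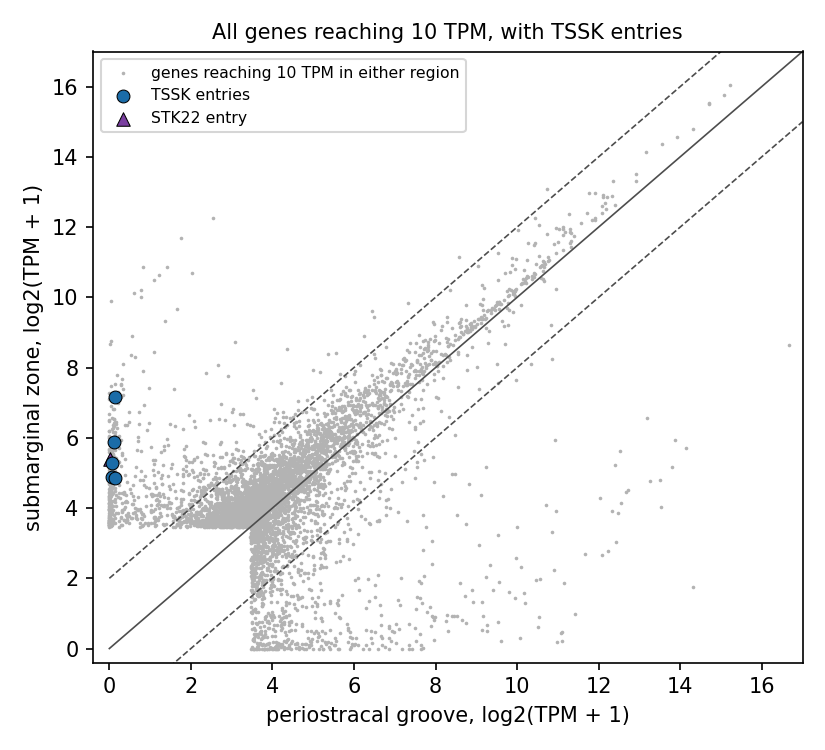
Level in the submarginal zone against level in the periostracal groove, both as log2(TPM + 1), for all 5800 genes reaching 10 TPM (grey), the 5 TSSK genes (circles) and the STK22 entry (triangle). The solid line marks equal levels and the dashed lines a 4-fold difference. The TSSK genes lie along the left edge, where the groove is near 0, between 4.85 and 7.18 on the submarginal axis.

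The members differed among themselves more in the submarginal zone than in the groove. The highest exceeded the lowest 5.15-fold in submarginal tissue and 2.2-fold in groove tissue. TRINITY_DN20338_c0_g1 alone held 48.5% of the summed TSSK level in the submarginal zone and was 2.46-fold above the next member. Further down, the steps between neighbours were 1.54-fold, 1.33-fold and 1.02-fold. With no spread between animals, the order of neighbours, and above all of the last pair, cannot be told apart from variation. The order also differed between regions, since TRINITY_DN5384_c0_g1 was the lowest in the submarginal zone and the highest in the groove. There it had 0.11 TPM, against 0.10 TPM for TRINITY_DN20338_c0_g1. Groove values this low have no known precision, so neither that order nor the 2.2-fold range is firm.

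Summed over the family, TSSK transcripts had 296 TPM in submarginal tissue, against 0.41 TPM in groove tissue. This was 0.0296% of all submarginal TPM and 4.07e-05% of all groove TPM. Without TRINITY_DN20338_c0_g1 the other 4 summed to 152 TPM in submarginal tissue, against 0.30 TPM in groove tissue. In bulk tissue, fewer cells of a type and less RNA per cell cannot be told apart.

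Every deposited value was a whole multiple of 1/300 (with 0.002 allowed after multiplying by 300), which is what results from a mean of 3 values with 2 decimals. If the values are such means, a limit follows for the single libraries, since TPM is never negative. No groove library could then have exceeded 3 times its mean, that is 0.31 TPM for TRINITY_DN20338_c0_g1, 0.27 TPM for TRINITY_DN1889_c0_g1, 0.16 TPM for TRINITY_DN4281_c0_g1, 0.15 TPM for TRINITY_DN28066_c0_g1 and 0.33 TPM for TRINITY_DN5384_c0_g1. For each member, at least 1 submarginal library must have reached its mean, which was 27.8 TPM or more. Whether all submarginal libraries did, or whether 1 pool of animals supplied most of the signal, cannot be told from means. A single library could have held up to 431 TPM of TRINITY_DN20338_c0_g1 with the others at 0.

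Each of the 5 members was the only gene of its Trinity read cluster, as were 55.6% of all genes reaching 10 TPM, so the assembler did not place any pair of them in 1 cluster. Members of a kinase family can still share reads where their sequences are alike, and several fragments of 1 transcript can appear as separate genes. Their number of true loci was not tested.

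A further entry carried an older symbol of the same kinases. STK22, the name under which several mammalian TSSK genes were first listed, was the product name of TRINITY_DN41428_c0_g1 and did not meet the naming rule. It had 41.2 TPM in submarginal tissue, against 0.01 TPM in groove tissue, a log2 ratio of 5.38, and ranked 118 of 5800 by ratio. It was also among the genes most like the members in profile. With it the family sum was 337 TPM in submarginal tissue, against 0.42 TPM in groove tissue.

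Profile likeness was measured as the distance to the members' median profile in log2(TPM + 1) over the 2 regions, among 2619 named genes reaching 10 TPM. Entries whose product name holds a word such as uncharacterized or hypothetical were left out of this search, also where that name goes on with a gene symbol. With 2 points per gene this measure compares a level and a ratio and nothing more. The nearest gene was KLHL10 (TRINITY_DN2623_c0_g1), which in mice is an adaptor of a ubiquitin ligase in spermatids, with 36.0 TPM in submarginal tissue, against 0.10 TPM in groove tissue, at a distance of 0.070. The others of the 8 nearest, with distances from 0.10 to 0.19, were FSCN1 and a fascin 1/2 entry (actin-bundling proteins, from 1 Trinity cluster), TTC25 (docking of dynein arms in cilia), PRPH2 (a tetraspanin of photoreceptor discs), STK22, COLEC12 (a scavenger receptor) and KLHL31 (a kelch protein). All 8 lay between 34.2 and 43.2 TPM in submarginal tissue and between 0.01 and 0.22 TPM in groove tissue.

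Taken singly, the members had other neighbours. TRINITY_DN20338_c0_g1 was nearest to the kelch protein KLHL28, with 143 TPM in submarginal tissue, against 0.21 TPM in groove tissue, and, among the genes searched, next to a C1q entry with 105 TPM in submarginal tissue, against 0.39 TPM in groove tissue. An entry named uncharacterized protein CFAP97D1, left out of the search, had 111 TPM in submarginal tissue, against 0.09 TPM in groove tissue, which is closer to this member than the C1q entry. TRINITY_DN1889_c0_g1 was nearest to Hemicentin-1 (a matrix protein) with 59.1 TPM in submarginal tissue, against 0.08 TPM in groove tissue, and to glycogen phosphorylase PYG with 54.3 TPM in submarginal tissue, against 0.09 TPM in groove tissue. The 2 nearest of TRINITY_DN4281_c0_g1 were FSCN1 and KLHL10, given above. TRINITY_DN28066_c0_g1 was nearest to the ubiquitin ligase MARCH1_8 with 28.7 TPM in submarginal tissue, against 0.04 TPM in groove tissue. F-box protein 39 followed for TRINITY_DN28066_c0_g1 and came first for TRINITY_DN5384_c0_g1, with 28.2 TPM in submarginal tissue, against 0.07 TPM in groove tissue. A second KLHL10 entry (TRINITY_DN66668_c0_g1) came next for TRINITY_DN5384_c0_g1, with 26.6 TPM in submarginal tissue, against 0.06 TPM in groove tissue.

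Few entries were matched by the names of proteins known in mammals to bind, activate or be phosphorylated by TSSK kinases. Of 3 entries reaching 10 TPM, 1 was at least 4-fold higher in submarginal tissue and none in groove tissue, beside 12.4% and 9.45% of all genes. That entry was outer dense fiber protein 2, a protein of the sperm tail and of centrioles that mouse TSSK4 phosphorylates, with 38.5 TPM in submarginal tissue, against 4.95 TPM in groove tissue. The kinase PDK1 (entry 3-phosphoinositide dependent protein kinase-1), which activates human TSSK3 in vitro, had 12.3 TPM in submarginal tissue, against 10.7 TPM in groove tissue. CREB3, a transcription factor entry caught only by the pattern for CREB, had 33.3 TPM in submarginal tissue, against 34.7 TPM in groove tissue. Without CREB3, 1 entry passed the 4-fold limit and 1 did not. The name pattern for the TSSK substrate TSKS matched no entry.

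Other kinases of the CAMK group mostly lay less than 4-fold apart. Of 8 entries reaching 10 TPM, 2 were higher in submarginal tissue and none in groove tissue, beside 12.4% and 9.45% of all genes. The median log2 ratio was 0.46, against 0.55 over all 5800 genes and 5.20 over the 5 TSSK genes. With a regulatory subunit of AMP-activated protein kinase removed, which is not a kinase, 2 of 7 were higher in submarginal tissue and the median was 0.48. The leading entry, TRINITY_DN3075_c0_g1, matched to salt-inducible kinases (SIK), had 23.4 TPM in submarginal tissue, against 0.01 TPM in groove tissue. NIM1 had 13.6 TPM in submarginal tissue, against 1.38 TPM in groove tissue, and TTN, named for the giant muscle protein titin, had 170.5 TPM in submarginal tissue, against 76.3 TPM in groove tissue.

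The name patterns for cell-cycle kinases matched 11 entries reaching 10 TPM. Of these, 3 were higher in submarginal tissue and none in groove tissue, beside 12.4% and 9.45% of all genes. With 4 entries removed that are not kinases, 2 of 7 were higher in the submarginal zone, and the median log2 ratio was 1.86. Among those removed was a cyclin-dependent kinases regulatory subunit-like entry (TRINITY_DN4946_c0_g1). It had 87.95 TPM in submarginal tissue, against 3.22 TPM in groove tissue, a log2 ratio of 4.40. A NIMA-related kinase (TRINITY_DN15265_c0_g1), the one entry of the list whose ratio (5.28) lay within the range of the TSSK genes, had 73.4 TPM in submarginal tissue, against 0.91 TPM in groove tissue. PLK1, a mitotic and meiotic kinase, had 14.1 TPM in submarginal tissue, against 1.09 TPM in groove tissue. PKMYT, which inhibits the mitotic kinase CDK1, had 28.2 TPM in submarginal tissue, against 6.42 TPM in groove tissue, just short of 4-fold on this scale.

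Phosphatases, which remove the phosphate groups that kinases add, were mostly less than 4-fold apart. Of 21 entries reaching 10 TPM, 2 were higher in submarginal tissue and none in groove tissue, beside 12.4% and 9.45% of all genes, and the median log2 ratio was 0.78. A PPP1C entry (TRINITY_DN35978_c0_g1), the catalytic subunit of protein phosphatase 1, had 22.3 TPM in submarginal tissue, against 0.43 TPM in groove tissue. A calcineurin regulatory subunit (phosphatase 2B, TRINITY_DN1257_c0_g1) had 11.3 TPM in submarginal tissue, against 0.19 TPM in groove tissue. By contrast, PPP1R3 (TRINITY_DN3280_c0_g1) had 33.8 TPM in submarginal tissue, against 10.2 TPM in groove tissue. PPP2C, the catalytic subunit of phosphatase 2A and the most abundant of the list, had 143 TPM in submarginal tissue, against 75.3 TPM in groove tissue.

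Germ-cell genes were examined because spermatids are the cells in which mammalian TSSK genes are active. Entries with meiosis names, most of them genes of recombination or chromosome pairing, had the highest median ratio of the germ-cell lists. All 5 entries at 10 TPM or more passed the 4-fold limit toward the submarginal zone, beside 12.4% of all genes. Their median log2 ratio was 3.72, with a range from 2.28 to 5.47. None of the 5 reached 10 TPM in the groove, so each passed the level filter through the submarginal zone only. The meiosis entries below 10 TPM, outside this count and median, had log2 ratios from -0.94 to 3.22. The lowest ratio of the 5 was that of Meiosis-specific nuclear structural protein 1, taken in for its name alone. It had 36.4 TPM in submarginal tissue, against 6.69 TPM in groove tissue. SYCP1, of the synaptonemal complex that joins paired chromosomes, had 51.7 TPM in submarginal tissue, against 0.19 TPM in groove tissue. The meiotic recombinase DMC1 had 41.1 TPM in submarginal tissue, against 0.30 TPM in groove tissue. REC8L, named for the meiotic cohesin REC8, had 12.4 TPM in submarginal tissue, against 0.01 TPM in groove tissue. Over all 18 meiosis entries, low ones included, the summed level was 198 TPM in submarginal tissue, against 15.8 TPM in groove tissue. Meiosis-specific nuclear structural protein 1 held 6.69 TPM of that groove sum.

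Genes named for sperm or testis were mixed. Of 9 entries reaching 10 TPM, 3 were higher in submarginal tissue and 1 in groove tissue, beside 12.4% and 9.45% of all genes. However, 3 of the 9 matched by letters alone. These were TCTEX1D2 (60.7 TPM in submarginal tissue, against 0.21 TPM in groove tissue), a Tctex-type dynein light chain and a spermidine synthase (2.44 TPM in submarginal tissue, against 15.3 TPM in groove tissue). With them removed and entries written out as outer dense fiber added, a correction made after values had been seen, 4 of 8 were higher in submarginal tissue and none in groove tissue. The median log2 ratio was 2.25 after that correction and 0.94 before it. An entry named outer dense fiber protein 3 had 29.5 TPM in submarginal tissue, against 0.30 TPM in groove tissue. TEX14, an inactive kinase of the bridges between mouse germ cells, had 12.1 TPM in submarginal tissue, against 0.21 TPM in groove tissue. Testis-expressed protein 43-like had 38.6 TPM in submarginal tissue, against 3.76 TPM in groove tissue. The most abundant, sperm-associated antigen 6 of the axoneme, had 41.3 TPM in submarginal tissue, against 11.5 TPM in groove tissue, which is less than 4-fold.

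Entries of the germline list, matched by names such as PIWI, DDX4 and tudor, had a lower median ratio than the meiotic list. Of 5 reaching 10 TPM, 3 were higher in submarginal tissue and none in groove tissue, beside 12.4% and 9.45% of all genes. Their median log2 ratio was 2.08. DDX4 (vasa, a germ-cell RNA helicase) had 31.1 TPM in submarginal tissue, against 5.17 TPM in groove tissue. PIWIa, an Argonaute-family protein that binds small RNAs of the germ line, had 95.6 TPM in submarginal tissue, against 19.3 TPM in groove tissue. A tudor domain-containing protein 1/4/6/7 had 14.3 TPM in submarginal tissue, against 2.62 TPM in groove tissue. By contrast, TUDOR11 had 76.5 TPM in submarginal tissue, against 115 TPM in groove tissue, and TDRD3 70.0 TPM in submarginal tissue, against 40.1 TPM in groove tissue. TUDOR11 and TDRD3, the entries less than 4-fold apart, were taken in for a tudor name, which need not mark a germ-cell gene. The 5 germline entries reaching 10 TPM thus had at least 2.62 TPM in the groove, where no TSSK gene was above 0.11 TPM. This does not hold for the lower entries of the list. Of all 23 germline entries, 2 were listed at 0 in the groove.

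Other entries of the germ-cell lists were low in both regions, and those given next were picked after their values were seen. The sperm-specific basic nuclear protein PHI is a protamine-like protein that packs mussel sperm DNA. It had 3.45 TPM in the submarginal zone and was listed at 0 in the groove. Also listed at 0 there were SPO11 (1.91 TPM in the submarginal zone) and NANOS3 (0.85 TPM in the submarginal zone). Low entries of these lists also went the other way. A sperm receptor for egg jelly-like entry had 1.37 TPM in submarginal tissue, against 4.03 TPM in groove tissue. SPATA7 had 7.09 TPM in submarginal tissue, against 8.59 TPM in groove tissue. An MSH5 entry was listed at 0 in submarginal tissue and had 0.92 TPM in groove tissue. Of the oocyte list, 1 entry was left after names matched by letters had been removed, Vitelline membrane outer layer protein 1, with 1.05 TPM in submarginal tissue, against 1.60 TPM in groove tissue. The name patterns for vitellogenin, zona pellucida proteins and FOXL2 gave no further entry. The 61 entries of the corrected germ-cell lists summed to 764 TPM in submarginal tissue, against 293 TPM in groove tissue, with 1 entry at 0 in submarginal tissue and 6 in groove tissue. Of that groove sum, the tudor-named entries TUDOR11 and TDRD3 held 115 TPM and 40.1 TPM. The part of germ-cell content in the TSSK difference was not tested.

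**Figure D3:**
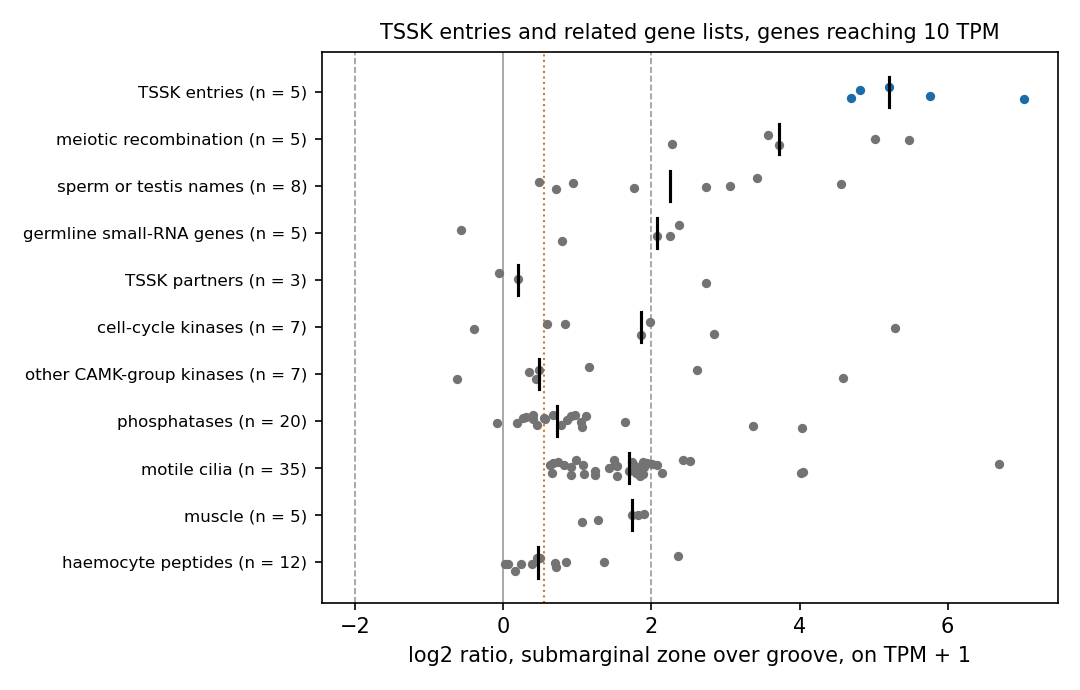
Log2 ratio of submarginal zone over groove on TPM + 1 for genes reaching 10 TPM, 1 point per gene, for the 5 TSSK genes (top) and 10 related lists as corrected, with a black bar at each median. Dashed lines mark 4-fold and the dotted line the median of all 5800 genes at 0.55. The TSSK genes lie at 4.70 and above, and the median of the meiotic list at 3.72 is the next highest of the lists drawn.

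Lists for other cell types were set beside the same shares of all genes, 12.4% higher in submarginal tissue and 9.45% in groove tissue. Motile cilia and sperm flagella share most of their structural proteins. Of 39 entries matched by such names and reaching 10 TPM, 9 were higher in submarginal tissue and none in groove tissue, with a median log2 ratio of 1.54. Some were dynein chains not particular to cilia. Among them were an LC8-type light chain with 921 TPM in submarginal tissue, against 158 TPM in groove tissue, and another with 88.0 TPM in submarginal tissue, against 207 TPM in groove tissue. With such entries removed, a correction made after values had been seen, 8 of 35 were higher in submarginal tissue and none in groove tissue, with a median of 1.70. An uncharacterised entry matched to CFAP97D1, needed for the sperm flagellum in mice, had 111 TPM in submarginal tissue, against 0.09 TPM in groove tissue. An axonemal dynein heavy chain 8-like entry had 20.2 TPM in submarginal tissue, against 0.28 TPM in groove tissue, and a further axonemal dynein heavy chain (TRINITY_DN229_c0_g2) had 15.6 TPM in submarginal tissue, against 0.02 TPM in groove tissue. Enkurin, a protein of the axoneme, had 113 TPM in submarginal tissue, against 29.8 TPM in groove tissue, which is less than 4-fold. The 134 cilia entries as first matched summed to 2744 TPM in submarginal tissue, against 955 TPM in groove tissue, with 12 entries at 0 in submarginal tissue and 17 in groove tissue. The 128 entries left after the correction summed to 1605 TPM in submarginal tissue, against 509 TPM in groove tissue.

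Of 5 muscle entries none was 4-fold apart, although all 5 were higher in the submarginal zone (median log2 ratio 1.74). Paramyosin of the thick filament (TRINITY_DN6169_c1_g1) had 4900.2 TPM in submarginal tissue, against 1392 TPM in groove tissue, and myosin heavy chain 6/7 (TRINITY_DN19877_c0_g2) had 3876 TPM in submarginal tissue, against 1043 TPM in groove tissue. A further paramyosin entry of that myosin's Trinity cluster had 2456 TPM in submarginal tissue, against 737 TPM in groove tissue. The 24 muscle entries summed to 14397 TPM in submarginal tissue, against 4498 TPM in groove tissue. Of 12 antimicrobial peptide entries of haemocytes, 1 was higher in the submarginal zone, a share below that of all genes. This was mytilin 5 with 40.3 TPM in submarginal tissue, against 7.06 TPM in groove tissue. The median log2 ratio of the 12 was 0.47, against 0.55 over all 5800 genes, and mytilin 8, the most abundant, had 889 TPM in submarginal tissue, against 545 TPM in groove tissue. A mytilin 3 entry had 626 TPM in submarginal tissue, against 243 TPM in groove tissue, and a mytilin 4 entry 118 TPM in submarginal tissue, against 65.0 TPM in groove tissue. The 16 haemocyte entries summed to 2419 TPM in submarginal tissue, against 1452 TPM in groove tissue, with none at 0 in either region. The part of muscle, cilia or haemocyte content in the TSSK difference was not tested.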

How the data were processed

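Per the labels' protocols, RNA of pooled mantle tissue was treated with DNase and sequencing libraries were built with a TruSeq kit. In the deposited tables each assembled gene has 1 TPM per region. Gene identifiers have the Trinity form and descriptions come from a column headed NR, per the file headers. Per the submitters' processing notes fastp was used. Not given in the sources used here were its version, the assembler and the quantifier. The TPM values summed to 999820 for the submarginal zone and 999875 for the groove. TPM keeps no read depth, so no counting interval is given. Of 78458 genes, 5 with empty cells were left out.

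Ratios were log2 of submarginal zone over groove after adding a pseudocount of 1 TPM. Genes at least 4-fold apart and reaching 10 TPM were counted, without any test, since each region has 1 profile. The calculation was tested on simulated data, with changes planted in genes well above the minimum level and counting noise at an assumed depth. The simulation held no variation between animals, so it does not show how reliable the differences given here are. The 12 related lists are patterns on product names. Their corrected forms, which drop names matched by letters only, were made after values had been seen. The members and lists were chosen with earlier results of these data known. Of each list, the 3 genes reaching 10 TPM with the largest absolute ratio in the corrected form and the most abundant one were named, with all TSSK genes, the 8 genes nearest to their median profile and the 2 nearest to each. TCTEX1D2, the Tctex-type dynein light chain, spermidine synthase, PHI, SPO11, NANOS3 and Vitelline membrane outer layer protein 1 were named outside this rule, after their values were seen. So were TDRD3, Meiosis-specific nuclear structural protein 1, the LC8-type dynein light chains and the regulatory subunit of AMP-activated protein kinase. The same holds for SPATA7, sperm receptor for egg jelly-like, MSH5, the HSP90 entries and the cyclin-dependent kinases regulatory subunit-like entry. The pseudocount, the minimum, the fold threshold and the scaling were varied. The software was matplotlib 3.10.9, pandas 2.3.3, numpy 2.4.6 and Python 3.11.15. No sequences or coordinates were used here.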

Additional observations from a re-analysis of the deposited data

How the results depend on the processing

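All 5 TSSK genes stayed at least 4-fold higher in submarginal tissue under every alternative run, and with STK22 the count was 6. Over the pseudocounts and scalings, the smallest member ratio was 2.68 and the largest 9.46 (log2), both at a changed pseudocount. The log2 ratio of their summed TPM ran from 8.97 to 9.65 over 7 alternatives, against 9.51. Median-of-ratios scaling moved the median ratio of all genes by -0.33 and upper-quartile scaling by -0.31, and the share of 4-fold genes that were higher in the submarginal zone was then 47.2% and 47.8%, in place of 56.7%.

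For the related lists, germ-cell means the sperm, sperm chromatin, meiosis, germline and oocyte lists together, and kinase means the kinase, partner and phosphatase lists together. As first written, 11 of 19 germ-cell, 8 of 43 kinase, 9 of 39 cilia, and 1 of 17 muscle and haemocyte genes were higher in the submarginal zone. Of all 5800 genes, 719 were (12.4%). A changed pseudocount or fold threshold left these totals the same. In this order the counts were 5, 5, 6 and 0, against 425 of all, with pseudocount 5. They were 12, 16, 28 and 7, against 1601, with a 2-fold threshold. They were 7, 5, 3 and 0, against 498, with an 8-fold threshold. Of all genes 1420 were higher in the submarginal zone, out of 37709 with a minimum of 1 TPM and out of 76629 with no minimum. Counts higher in the groove were 1 of 19 germ-cell genes and 548 of all 5800 genes (9.45%). They were 0 and 350 with pseudocount 5, 0 and 393 with an 8-fold threshold, and 0 germ-cell genes with the corrected lists. With a 2-fold threshold 880 of all genes and 1 cilia gene were higher in the groove. With a minimum of 1 TPM and with no minimum, 2 germ-cell and 3 kinase genes and 1023 of all genes were. With the 10 most abundant genes of either region left out of the total, 2 germ-cell genes were, against 772 of 8330. The number of genes compared thus differed in these runs, so their counts cannot be set beside 719 or 548. The germ-cell median log2 ratio of 2.25 became 0.80 with a minimum of 1 TPM and 0.64 with no minimum, and the cilia median of 1.54 became 0.61 with no minimum. A lower minimum admits low genes, whose ratios the pseudocount shrinks. No paired analysis was possible because each region has 1 deposited profile. Depth is unknown, so groove values near 0.1 TPM have no known precision.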

Other observations

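The range of the 5 TSSK genes, at or above 27.8 TPM in the submarginal zone and at or below 0.11 TPM in the groove, held 118 further genes. With the TSSK genes they were 6.60% of the 1865 genes that reached that submarginal level. Of the 118, 92 had no informative product name and 26 had one. Names with a word such as uncharacterized were counted as not informative, among them CFAP97D1 with 111 TPM in submarginal tissue, against 0.09 TPM in groove tissue. The most abundant of the 26 named ones after the C1q protein MgC1q29 (958 TPM in submarginal tissue, against 0.03 TPM in groove tissue) and the protease MEP1B (406 TPM in submarginal tissue, against 0.01 TPM in groove tissue) was ankyrin repeat and SOCS box protein 17, a gene expressed in mammalian testis, with 92.6 TPM in submarginal tissue, against 0.08 TPM in groove tissue. It was followed by UBE2D, a ubiquitin-conjugating enzyme, with 79.1 TPM in submarginal tissue, against 0.08 TPM in groove tissue. The ubiquitin-pathway names KLHL10, F-box protein 39 and MARCH1_8 lay in the same range. So did genes of cyclic-nucleotide signalling. A receptor-type guanylate cyclase (TRINITY_DN9738_c0_g1) had 52.9 TPM in submarginal tissue, against 0.06 TPM in groove tissue. The cyclic nucleotide-gated channel subunit CNGA3 had 51.0 TPM in submarginal tissue, against 0.06 TPM in groove tissue. These genes were singled out after their values were seen, no test of a shared function was made, and the range was set by the TSSK genes themselves.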
